A study of Mus musculus with 6 samples.

Results

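Msln, Upk3b, Wt1, Krt7, Krt8, Krt18, Krt19, Tbx18, Bnc1 and Lrrn4 are genes by which the epicardium and other mesothelial layers are commonly recognised. They were taken by symbol from a deposited table of 33682 rows, in which all 10 were found, each on 1 row. Although the labels state mouse as the organism, 32883 of these rows carry rat identifiers and 0 carry mouse ones. The sequenced RNA came from neonatal rat heart cells that had been given conditioned medium, which is the supernatant of another culture, here mast cells grown from bone marrow and treated with the cytokine TNF-alpha. In 3 samples the mast cells were ALOX5-/- (Alox5KO medium), so that they lacked 5-lipoxygenase, the enzyme that starts leukotriene synthesis, and in 3 samples they were WT (WT medium). TNF-alpha was given to the mast cells of both groups and the sequenced cultures are labelled WT in genotype throughout, so the groups differed in whose medium they received. Nothing in the labels shows the replicates to be separate cultures, and p-values here cover the spread among these samples alone, which may be technical.

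The epicardium is the mesothelial sheet on the outer surface of the heart. In the embryo some of its cells lose their epithelial character, move into the heart wall and give rise to most fibroblasts of the myocardium and to mural cells of the coronary vessels, a process that depends on Wt1 in mice. Mesothelial cells are unusual in carrying keratins and surface glycoproteins of epithelia beside mesenchymal transcripts such as vimentin. Wt1 and Tbx18 are transcription factors that mark the epicardium early and are also found in mesenchyme derived from it, whereas mesothelin, uroplakin 3B and the keratins mark the intact sheet.

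Levels are given in FPKM, fragments counted on a gene relative to its length and to library depth, as the authors deposited them, so that levels of different genes can be set beside each other. Between 13284088 and 15766187 reads per library could be recovered from these values. Wt1, Tbx18, Msln and Lrrn4 had at least 21 reads in every library. Krt18 had at most 3 reads with Alox5KO medium and at least 39 with WT medium, Krt7 had between 4 and 38 over all libraries, and Krt8, Upk3b, Krt19 and Bnc1 had at most 16 in any. Differences between media were tested with limma on log2(FPKM + 1) over the 12341 genes whose mean in the 6 libraries reached 1 FPKM, and a gene was called when its p adjusted after Benjamini and Hochberg (BH) was under 0.05. The test covered 5 members, namely Wt1, Tbx18, Msln, Lrrn4 and Krt18, and the other 5 lay under the limit. Msln and Krt18 fell with Alox5KO medium and the other 3 did not pass. Of all genes tested 20.7% were called, 10.6% were called lower, and 1238 of the 12341 were called higher. Krt18 passed the abundance limit only through the WT-medium libraries, so nothing is read from the number of tested members that fell against these shares.

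**Figure D1:**
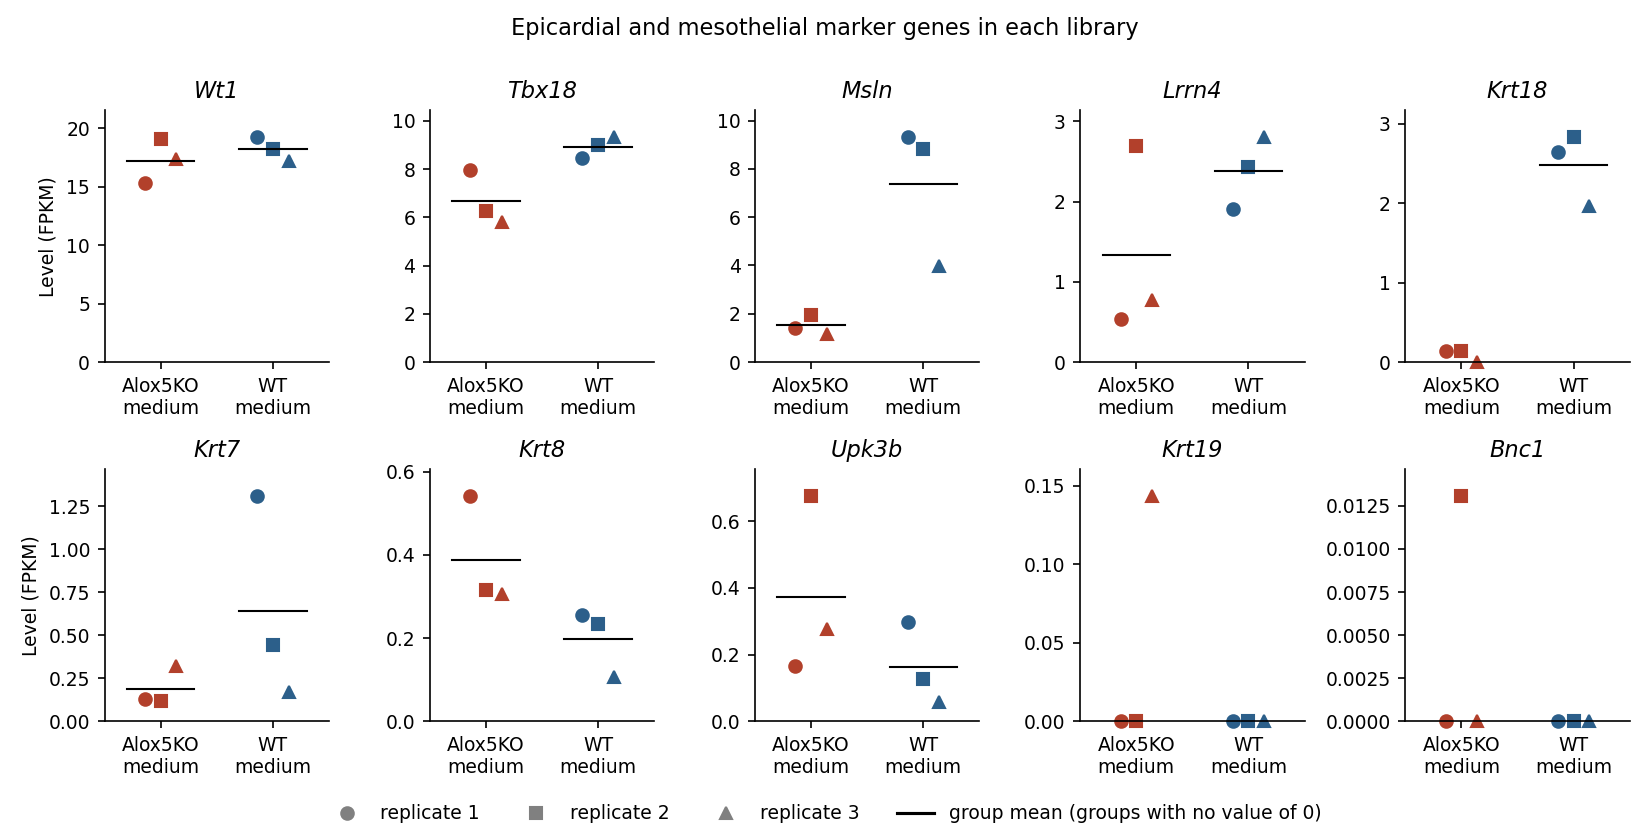
Level of each of the 10 genes in every library, in FPKM on a linear axis that starts at 0 and has its own scale per gene, with Alox5KO medium in red and WT medium in blue. Symbols mark the replicate number and black lines the mean of groups in which no library was listed at 0. Msln, Krt18 and Tbx18 are lower in all 3 Alox5KO-medium libraries than in any WT-medium library, Krt8 is higher, and the groups overlap or are listed at 0 for the rest.

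Wt1 encodes a zinc finger transcription factor of the epicardium, the kidney podocyte and the gonad. It was the most abundant member, with 15.3, 19.0 and 17.3 FPKM in Alox5KO-medium replicates 1 to 3 and 19.2, 18.2 and 17.2 FPKM in WT-medium replicates 1 to 3. Of all protein-coding genes in the table, 80.7% had a lower mean. The groups overlapped, at 17.2 ± 1.87 FPKM with Alox5KO medium and 18.2 ± 1.02 FPKM with WT medium (SD, n = 3 each). The log2 fold change was -0.08 ± 0.11 (SE), with a 95% interval of -0.32 to 0.16 (limma, BH-adjusted p = 0.66). The gene lies on chromosome 3 from 95133713 to 95180564 on the plus strand, in the coordinates of the table. An unannotated locus on the opposite strand lies 507 bases from it, with between 23 and 43 reads in the Alox5KO-medium libraries and between 35 and 61 in the WT-medium libraries. At -0.58 on the log2 scale it did not pass the test (limma, BH-adjusted p = 0.090).

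Tbx18, a T-box transcription factor of the epicardium and of cardiac mesenchyme, was next in level. It had 7.96, 6.28 and 5.82 FPKM with Alox5KO medium and 8.46, 8.98 and 9.32 FPKM with WT medium. The ranges did not overlap, but Alox5KO-medium replicate 1 lay close to the WT-medium libraries. With a mean of 6.68 ± 1.13 FPKM with Alox5KO medium and 8.92 ± 0.432 FPKM with WT medium (SD, n = 3 each), the log2 fold change was -0.38 ± 0.13 (SE) and did not pass the test (limma, BH-adjusted p = 0.072). Without Alox5KO-medium replicate 1 it was -0.49 and passed (BH-adjusted p = 0.028 by limma), and over all 18 alternatives run the adjusted p lay between 0.028 and 0.19. Ranges that did not overlap, with the Alox5KO-medium libraries lower, were seen for 18.8% of all genes tested. A row on the opposite strand overlaps Tbx18, with at most 3 reads in any library.

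Bnc1 encodes basonuclin 1, a zinc finger protein of basal keratinocytes, germ cells and mesothelium. It had 1 read in Alox5KO-medium replicate 2 and was listed at 0 in the other 5 libraries. At its length, 3 reads would have amounted to 0.0392 to 0.0483 FPKM by library, counting error alone considered. Listed zeros were not read as absence, since 4 libraries also had 0 for the ribosomal protein gene Rpl8, a gene picked with its values known.

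Msln encodes mesothelin, a glycoprotein anchored to the surface of mesothelial cells that binds the mucin MUC16. With Alox5KO medium it had 47, 69 and 39 reads, or 1.42, 1.95 and 1.18 FPKM, and with WT medium 286, 254 and 125 reads, or 9.31, 8.84 and 3.96 FPKM. All 3 Alox5KO-medium libraries lay below all 3 WT-medium libraries, and WT-medium replicate 3 lay well below the other WT-medium libraries. The mean was 1.52 ± 0.394 FPKM with Alox5KO medium, 0.206 times the 7.37 ± 2.96 FPKM with WT medium (SD, n = 3 each). Msln fell by 1.67 ± 0.29 (SE) on the log2 scale (limma, BH-adjusted p = 0.0052). WT-medium replicate 3 stood apart from the other libraries on the second principal component of all tested genes, which held 11.7% of the variance. Without it the log2 fold change of Msln was -2.01 (limma, BH-adjusted p = 1.3e-04), and over all 17 alternatives in which Msln was tested the adjusted p was between 1.3e-04 and 0.029. In a bulk culture, fewer cells of a kind and less RNA per cell cannot be told apart.

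The gene lies on chromosome 10 from 15119663 to 15125408 on the minus strand, and its paralog Mslnl, the mesothelin-like gene, ends 480 bases away on the opposite strand. Mslnl had between 8 and 11 reads per library with Alox5KO medium and between 17 and 18 with WT medium, too few for the test. No source used here says whether counting was by strand, and reads near the shared border cannot be assigned with certainty.

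Lrrn4, a membrane protein with leucine-rich repeats that is a mesothelial marker in mice, had 0.539, 2.69 and 0.772 FPKM with Alox5KO medium and 1.91, 2.43 and 2.80 FPKM with WT medium. Alox5KO-medium replicate 2 lay within the WT-medium range, and the other libraries of its group lay below it. The mean was 1.33 ± 1.18 FPKM with Alox5KO medium and 2.38 ± 0.448 FPKM with WT medium (SD, n = 3 each). The log2 fold change of -0.64 ± 0.32 (SE) did not pass the test (limma, BH-adjusted p = 0.22). It was -1.02 without Alox5KO-medium replicate 2 and then passed (BH-adjusted p = 0.0079 by limma), -0.39 without Alox5KO-medium replicate 1, and -1.12 with voom on the recovered reads. Over all 17 alternatives in which Lrrn4 was tested, the adjusted p lay between 0.0079 and 0.46. The gene Crls1 lies 1340 bases from it on the opposite strand and differed by -0.03 on the log2 scale (limma, BH-adjusted p = 0.89).

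Upk3b encodes uroplakin 3B, a membrane protein named for the bladder lining and used as a marker of mesothelium. With Alox5KO medium it had 3, 13 and 5 reads, or 0.166, 0.675 and 0.278 FPKM, and with WT medium 5, 2 and 1 reads, or 0.299, 0.128 and 0.0582 FPKM. The groups overlapped, and Alox5KO-medium replicate 2 alone held most of the reads of its group. Fitted without the abundance limit, over 19519 genes of which 12.1% were called, it stood at 0.23 on the log2 scale and did not pass (limma, BH-adjusted p = 0.42).

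**Figure D2:**
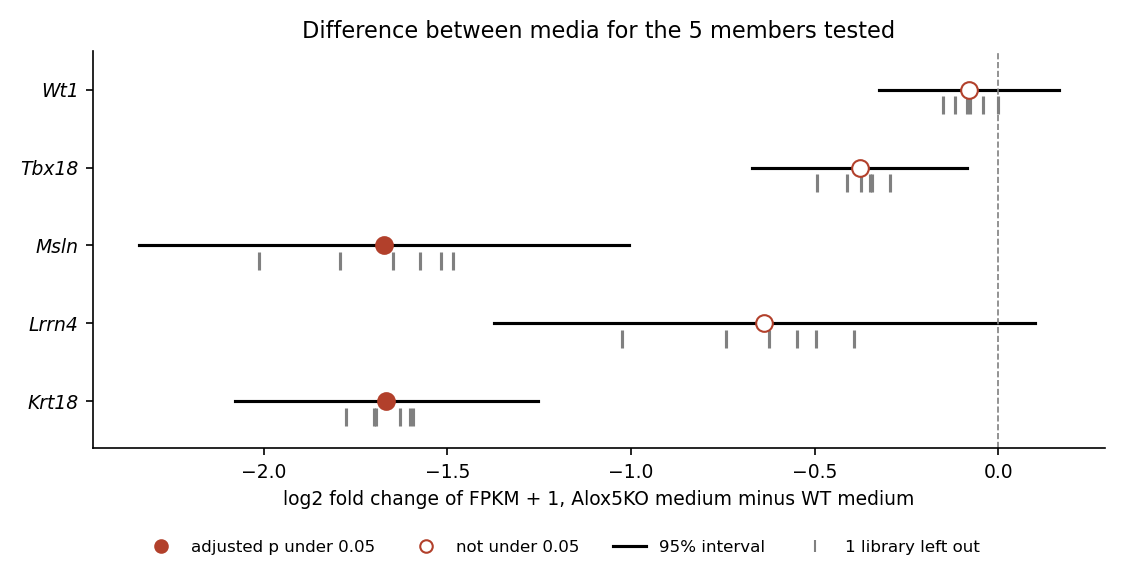
Log2 fold change of FPKM + 1, Alox5KO medium minus WT medium, for the 5 members above the abundance limit. Circles are the fit on all 6 libraries, filled where the limma adjusted p was under 0.05, bars are 95% intervals, and grey ticks are the values with 1 library left out. Msln and Krt18 lie at -1.67 each, with intervals away from 0, while the interval of Wt1 runs from -0.32 to 0.16. The falls of Msln and Krt18 are equal on this scale only. With voom on the recovered reads, not drawn, they were -2.16 and -4.81.

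Keratins form filaments from pairs of a type I and a type II chain, and Krt18 with Krt8 is the pair of simple epithelia, joined or replaced by Krt19 and Krt7. Krt18, the type I chain, had 3, 3 and 0 reads with Alox5KO medium, or 0.144, 0.135 and 0 FPKM, and 51, 51 and 39 reads with WT medium, or 2.65, 2.83 and 1.97 FPKM. The groups lay far apart. The 6 reads with Alox5KO medium, set against 141 with WT medium and scaled to the recovered reads of each group, gave a ratio of 0.0388 with a 95% interval of 0.0140 to 0.0867 (Clopper-Pearson, counting error only). Krt18 fell by 1.67 ± 0.18 (SE) on the scale of log2(FPKM + 1) (limma, BH-adjusted p = 2.7e-04). On that scale a gene as low as Krt18 moves less than its reads do. The log2 fold change was -3.83 with a pseudocount of 0.1 and -4.81 with voom on the recovered reads, and the adjusted p lay between 1.9e-04 and 0.0022 over all 17 alternatives in which Krt18 was tested. Without WT-medium replicate 3 it was -1.78 (limma, BH-adjusted p = 5.9e-04).

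Krt8, the type II partner of Krt18, had few reads and the opposite order of groups. There were 16, 10 and 9 reads with Alox5KO medium, or 0.541, 0.316 and 0.305 FPKM, and 7, 6 and 3 reads with WT medium, or 0.255, 0.234 and 0.106 FPKM. The Alox5KO-medium libraries all lay above the WT-medium libraries, an order seen for 7.06% of the 7178 genes above 0 and under the abundance limit. The pooled reads, 35 and 16, gave a ratio of 2.00 with a 95% interval of 1.08 to 3.86 (Clopper-Pearson, counting error only). The log2 fold change of 0.21 did not pass the test run without the abundance limit (limma, BH-adjusted p = 0.25). Per length, Krt18 stood at 0.267, 0.427 and 0 times the level of Krt8 in the Alox5KO-medium libraries and at 10.4, 12.1 and 18.5 times it in the WT-medium libraries. The pair thus had Krt8 above Krt18 in every Alox5KO-medium library and Krt18 above Krt8 in every WT-medium library. Both genes lie on chromosome 7, 25.7 kilobases apart, Krt18 from 143629455 to 143633131 and Krt8 from 143596511 to 143603803. Genes of this pair have many processed copies in mammalian genomes, and no source used here says how reads that match several places were counted, so the levels of both are uncertain.

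Krt7, a type II keratin of simple epithelia and mesothelium, had 4, 4 and 10 reads with Alox5KO medium, or 0.128, 0.120 and 0.320 FPKM, and 38, 12 and 5 reads with WT medium, or 1.31, 0.442 and 0.168 FPKM. The groups overlapped, and WT-medium replicate 1 held most of the WT-medium reads. Its log2 fold change of -0.41 did not pass the test without the abundance limit (limma, BH-adjusted p = 0.38). Krt19, a type I keratin of simple epithelia, had 3 reads in Alox5KO-medium replicate 3 and was listed at 0 in the other 5 libraries. In the table Krt19 lies within the row of Krt14 on the same strand, which was listed at 0 in all 6 libraries, so the level of Krt19 is uncertain. With voom on the recovered reads and no abundance limit, an alternative chosen after seeing the data, the adjusted p of these 5 low members ran from 0.27 for Krt8 to 0.75 for Bnc1.

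**Figure D3:**
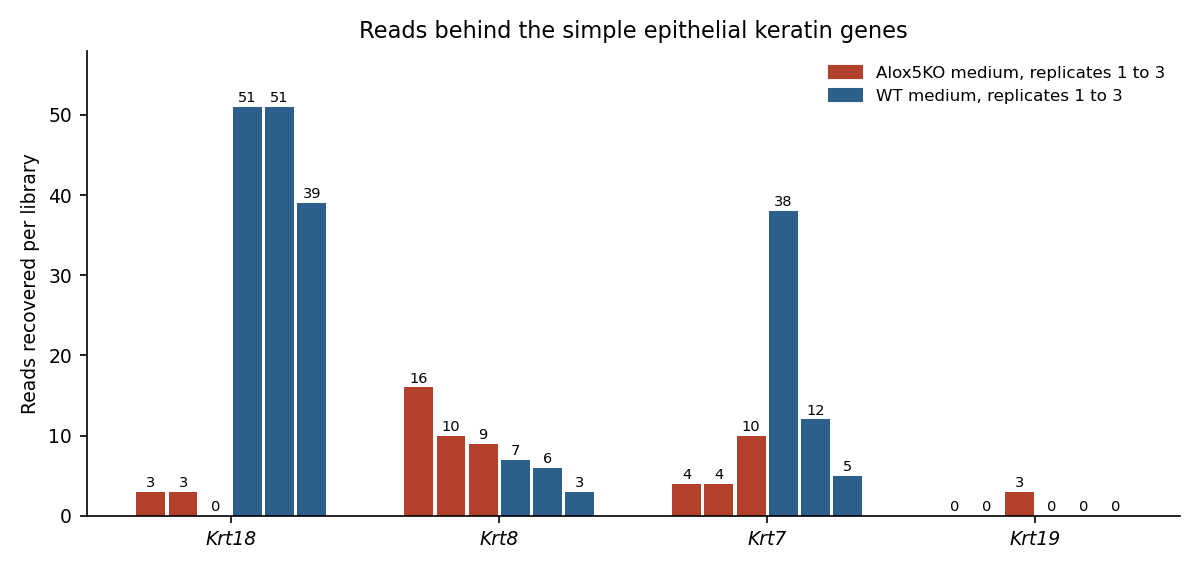
Reads recovered per library for the 4 keratin genes, as bars from 0, with Alox5KO-medium libraries in red left of WT-medium libraries in blue and replicates 1 to 3 from left to right in each. Krt18 has 3, 3 and 0 reads with Alox5KO medium and 51, 51 and 39 with WT medium, whereas Krt8 has 16, 10 and 9 with Alox5KO medium and 7, 6 and 3 with WT medium.

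Of 43 further keratin genes in the table, 25 were listed at 0 in all 6 libraries and 1, Krt10, a keratin of the upper epidermis, passed the abundance limit. Krt10 had 1.27, 1.96 and 1.97 FPKM with Alox5KO medium and 1.80, 1.75 and 1.46 FPKM with WT medium, and its log2 fold change of 0.03 did not pass the test (limma, BH-adjusted p = 0.94). Summed over the 43 genes, the level ran from 2.06 to 3.22 FPKM with Alox5KO medium and from 2.22 to 2.78 FPKM with WT medium.

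By mean over all libraries the members ranked Wt1, Tbx18, Msln, Lrrn4, Krt18, Krt7, Krt8, Upk3b, Krt19 and Bnc1. Wt1 was above Tbx18 in all 3 libraries of each group, without overlap of their ranges. Tbx18 was above Msln without overlap with Alox5KO medium, whereas with WT medium their ranges overlapped and Tbx18 was the higher in 2 of 3 libraries. Msln and Lrrn4 overlapped with Alox5KO medium and were apart with WT medium, and Lrrn4 and Krt18 were apart with Alox5KO medium and overlapped with WT medium. Krt7, Krt8 and Upk3b overlapped as neighbours within both groups. Of the 10 members, 5 had their highest Alox5KO-medium value in replicate 2, among them Wt1, Msln, Lrrn4 and Upk3b, and replicate 2 was the highest for 32.5% of all genes tested. With WT medium, 6 of the 8 members above 0 were lowest in replicate 3, which was the lowest library for 39.6% of all genes tested. Both counts include members under the abundance limit, whereas the shares cover tested genes only, so no excess is read from them.

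The gene with the most similar profile over the 6 samples was found for each tested member among 11855 tested genes with a symbol, by the Pearson correlation of log2(FPKM + 1), given as a description. Since the points fall into both media, a gene that differs between the media resembles any other that differs the same way. For Msln it was Ugdh, UDP-glucose dehydrogenase, which feeds hyaluronan and proteoglycan synthesis, with r = 0.997 and 844 genes above 0.9. Ugdh had 174, 193 and 172 FPKM with Alox5KO medium and 305, 311 and 241 FPKM with WT medium. For Krt18 it was Ndrg1, a gene induced by hypoxia and other stress, with r = 0.9997 and 1043 genes above 0.9. Ndrg1 had 5.15, 5.16 and 4.11 FPKM with Alox5KO medium and 27.3, 28.0 and 19.5 FPKM with WT medium. The closest genes to Wt1, Tbx18 and Lrrn4 were Zfp770, Rsrp1 and Mdc1, with r of 0.992, 0.997 and 0.987, and none of these 3 genes passed the test.

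Other genes used to recognise epicardium or mesothelium moved in both directions. Of 25 such symbols 23 were found and 14 tested, of which 8 rose, 3 fell and 3 did not pass, with a median log2 fold change of 0.56 against -0.00082 over all genes tested. Of all 12341 genes tested, 1238 were called higher and 1313 lower, the background for this list and those that follow. The lists were chosen with earlier results of these data known, so no excess is read from their counts. Aldh1a2, the enzyme that makes retinoic acid in the epicardium, had 8.15, 8.42 and 6.29 FPKM with Alox5KO medium and 74.7, 60.9 and 102 FPKM with WT medium, groups that lay far apart. It fell by 3.20 ± 0.19 (SE) on the log2 scale (limma, BH-adjusted p = 2.0e-05). Pdpn, podoplanin, a mucin-like protein of mesothelium and lymphatic vessels, was the most abundant of the list and fell by 0.81, and Hand2, a basic helix-loop-helix factor of the developing heart, fell by 1.03.

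Cdh3, which encodes P-cadherin, had 19.4, 22.6 and 22.5 FPKM with Alox5KO medium and 2.95, 2.57 and 4.65 FPKM with WT medium, a rise of 2.38 ± 0.17 (SE) on the log2 scale (limma, BH-adjusted p = 2.3e-05). Rspo1, a secreted enhancer of Wnt signalling, rose by 1.54. Tcf21, a factor needed for the epicardial origin of cardiac fibroblasts in mice, and Itga4, the integrin chain by which epicardial cells attach to the myocardium in mice, were named after their values were seen. Tcf21 had 25.4, 28.7 and 23.6 FPKM with Alox5KO medium and 18.3, 18.2 and 11.4 FPKM with WT medium and rose by 0.69. Itga4 had 5.06, 3.94 and 4.87 FPKM with Alox5KO medium and 0.717, 0.465 and 1.35 FPKM with WT medium and rose by 1.63. It passed the abundance limit only through the Alox5KO-medium libraries. Of the called genes of this list, Aldh1a2, Pdpn and Hand2 shared the direction of Msln and Krt18. Cdh3, Rspo1, Tcf21, Itga4, Gata4, Gata6, Nr2f2 and Scx had the opposite one.

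Junction genes of epithelia were mostly at low levels. Of 29 found, 24 lay under the abundance limit, and Cldn7, Crb3, Esrp1 and Ovol2 were listed at 0 in all 6 libraries. Over the 3 libraries of a group Cdh1, E-cadherin, had 4 reads with Alox5KO medium and 2 with WT medium, and the adhesion molecule gene Epcam had 6 with Alox5KO medium and 1 with WT medium. Cldn1, claudin 1 of tight junctions, had 1, 2 and 0 reads with Alox5KO medium and 34, 25 and 30 with WT medium. It lay under the abundance limit and fell by 0.69 in the fit without that limit (limma, BH-adjusted p = 0.0021). On the scale of log2(FPKM + 1) a gene as low as Cldn1 moves less than its reads do. These 3 genes were named after their values were seen. Of the 5 genes tested 2 rose, 3 did not pass and the median was 0.18. Jup, plakoglobin, rose by 0.97. The most abundant, Tjp1, zonula occludens 1, stood at -0.23 on the log2 scale and did not pass (limma, BH-adjusted p = 0.26). The count of rises was 1 without Alox5KO-medium replicate 1, without Alox5KO-medium replicate 3 or without WT-medium replicate 1.

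Genes of the transition from epithelium to mesenchyme were abundant in both groups, and 7 of 15 tested rose, 4 fell and 4 did not pass, with a median of 0.18. The count of rises was 4 without WT-medium replicate 1. Vim, vimentin, had 2973, 3516 and 3817 FPKM with Alox5KO medium and 2088, 1953 and 1866 FPKM with WT medium and rose by 0.80. The growth factor Tgfb2 rose by 1.90 and the homeobox gene Prrx1 by 0.66, while Twist2, a basic helix-loop-helix factor, fell by 1.05 and Fn1, fibronectin, fell by 1.10. Snai1, a repressor of E-cadherin, was named after its values were seen and had 27.4, 32.2 and 32.7 FPKM with Alox5KO medium and 21.2, 20.2 and 23.5 FPKM with WT medium, a rise of 0.49.

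**Figure D4:**
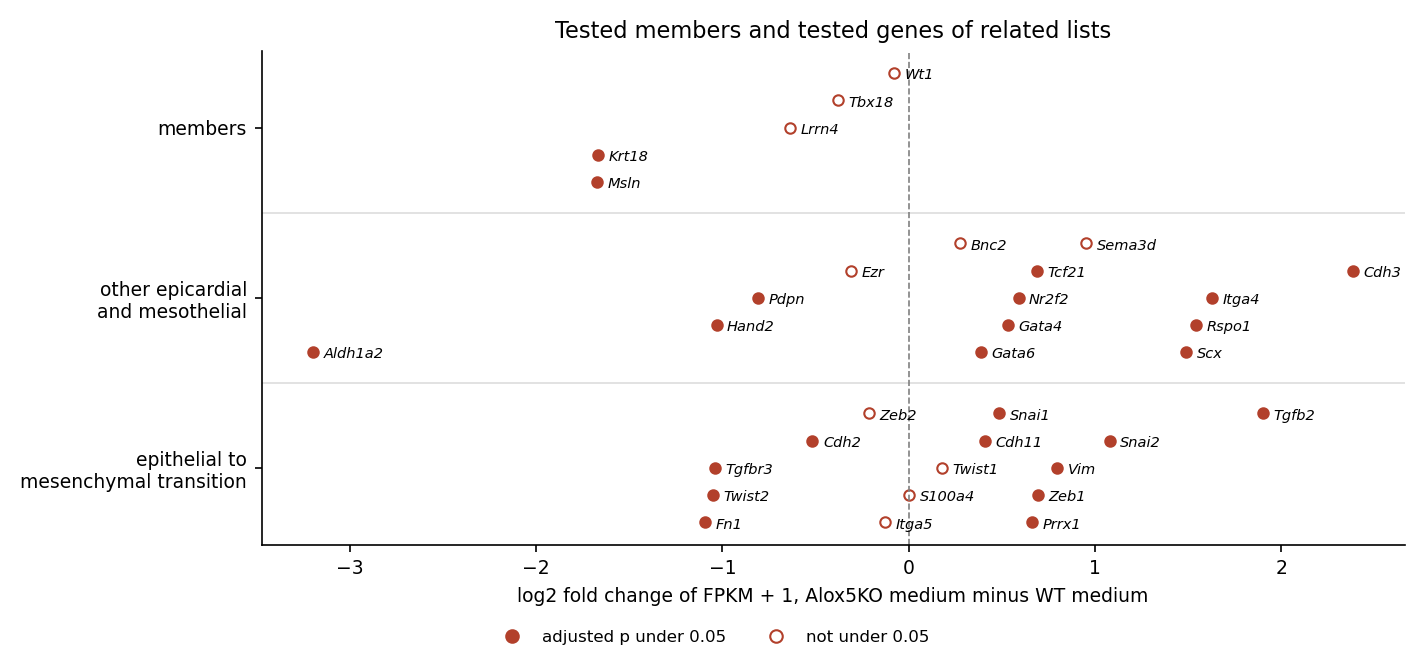
Log2 fold change of FPKM + 1, Alox5KO medium minus WT medium, of each gene above the abundance limit among the members and the lists of other epicardial and mesothelial genes and of transition genes, spread vertically for legibility. Filled circles had a limma adjusted p under 0.05. The tested members lie below 0, but only Msln and Krt18 passed, and Krt18 passed the abundance limit only through the WT-medium libraries. Members under that limit are not drawn. Fitted without it, Krt8 and Upk3b stood at 0.21 and 0.23 and Krt7 at -0.41, and none of these passed. Of 14 other epicardial and mesothelial genes 8 were called higher and 3, Aldh1a2, Hand2 and Pdpn, lower.

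The sample labels call the cells cardiomyocytes and the design text names a fibroblast culture. Summed over 12 fibroblast markers the level was between 11410 and 13153 FPKM with Alox5KO medium and between 11394 and 12000 FPKM with WT medium, and 2 of the 12 tested rose and 4 fell. The collagen gene Col1a1, the most abundant, stood at 0.19 on the log2 scale and did not pass (limma, BH-adjusted p = 0.46), and Col3a1, another collagen gene, rose by 0.84. Dcn, decorin, a proteoglycan of the matrix, had 118, 207 and 76.9 FPKM with Alox5KO medium and 2731, 2519 and 1407 FPKM with WT medium and fell by 4.10. Lum, lumican, a related proteoglycan named after its values were seen, fell by 2.10, and the growth factor receptor gene Pdgfra fell by 1.09.

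Summed over 11 cardiomyocyte markers the level was between 91.6 and 115 FPKM with Alox5KO medium and between 28.0 and 51.0 FPKM with WT medium. Of these markers 3 of 6 tested rose and 0 fell, and Myl2 was listed at 0 throughout. Myh6, Myh7, Actn2 and Pln passed the abundance limit only through the Alox5KO-medium libraries, so nothing is read from this count. Tnnt2, cardiac troponin T, the most abundant, held most of the sum and rose by 1.79. Pln, phospholamban, rose by 1.17 and the myosin heavy chain gene Myh7 by 0.71. Summed over 12 markers of smooth muscle and pericytes the level was 5008 to 6860 FPKM with Alox5KO medium and 1107 to 1204 FPKM with WT medium. Tagln and Acta2 held most of that sum in both groups, so it says little about the pericyte markers. Of the 11 genes tested 8 rose and 2 fell. Tagln, transgelin, the most abundant, rose by 2.05, Acta2, smooth muscle actin, by 3.01, Notch3, a receptor of mural cells, by 2.33 and Myh11, smooth muscle myosin, by 1.84. Notch3, with a mean of 0.864 FPKM with WT medium, passed the abundance limit only through the Alox5KO-medium libraries. Nothing is read from its part in the count of rises. The 2 genes of this list that fell were Kcnj8, at -1.83 on the log2 scale, and Abcc9, at -0.85. Des stood at -0.65 and did not pass (limma, BH-adjusted p = 0.31). Kcnj8, Abcc9 and Des were named after their values were seen.

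Mast cell markers summed to between 25.0 and 34.5 FPKM with Alox5KO medium and between 47.4 and 64.9 FPKM with WT medium, 2 of 3 tested fell and 0 rose, and Tpsb2, Mcpt4, Fcer1a and Ms4a2 were listed at 0 in all libraries. Cpa3, mast cell carboxypeptidase, held most of the sum and fell by 1.18, and the transcription factor gene Gata2 fell by 0.47. The count of falls was 1 with a replicate block, with TPM scaling, with a minimum mean of 5 FPKM and without any 1 library other than Alox5KO-medium replicate 3. Of the endothelial markers 1 of 2 tested fell, the receptor gene Tek by 0.56, while Egfl7, the most abundant, stood at -0.03 on the log2 scale. That count was 0 without Alox5KO-medium replicate 1 or 3, without WT-medium replicate 2 or 3, with no abundance limit, with a minimum mean of 5 FPKM and with TPM scaling. Of the leukocyte markers 1 of 3 tested fell, Cd14, a receptor of monocytes, by 0.41, and this count was 0 without Alox5KO-medium replicate 2 or 3 and without WT-medium replicate 1 or 2. Of the Schwann cell markers only Mbp, myelin basic protein, was tested, and it stood at 0.15 and did not pass. None of the endothelial, leukocyte or Schwann cell markers tested rose. The part of these differences in the values of Msln and Krt18 was not tested.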

How the data were processed

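Libraries were made with a NEBNext Ultra RNA kit from RNA isolated in TRIzol, per the labels. The submitters' processing notes name, with no roles, the tools DESeq2 1.20.0, featureCounts 1.5.0-p3, HISAT2 2.0.5, fastp and CASAVA 1.8, and the mouse build mm10. The labels state mouse as the organism, yet 32883 of 33682 rows have rat Ensembl identifiers and 0 have mouse ones. No source used here names the rat build. The authors deposited FPKM values in 1 column per sample, per the file headers. FPKM multiplied by gene length came out as whole reads, within a tolerance of 0.05, for 100% of values above 0, and these reads were recovered.

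Genes averaging 1 FPKM or more were tested on log2(FPKM + 1) by limma 3.58.1 under R 4.3.3 (trend, robust prior, two-sided, Benjamini-Hochberg threshold 0.05, no replicate block), as Alox5KO medium minus WT medium. The fit was tested on simulated data with the same dispersion for every gene, drawn only from genes above the abundance limit. That run does not bear on genes that vary more between replicates or lie under the limit. Members and lists were chosen with earlier results of these data known. All members are named, and from each list the most abundant gene and up to 4 called genes of smallest p. Symbols were matched in any case. One gene that this rule names is not reported here.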

Additional observations from a re-analysis of the deposited data

How the results depend on the processing

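Of 18 alternatives run, 2 were added after seeing the data, a pseudocount of 0.1 and voom on the recovered reads, both without the abundance limit. Wt1 did not pass and kept a negative log2 fold change in all 18, Msln and Krt18 passed with a negative one in all 17 in which they were tested, and 0 members were called higher in the other 16. With a minimum mean of 5 FPKM, where only Wt1 and Tbx18 were tested, 0 members were called lower. With 1 library left out, 2 to 3 members were called lower, between 791 and 1226 genes were called higher and between 862 and 1325 lower, the lowest counts being those without WT-medium replicate 1. Tbx18 then ran from -0.49 to -0.30 and Lrrn4 from -1.02 to -0.39 on the log2 scale. The number of junction genes called higher ran from 1 to 2, and of transition genes from 4 to 7. Without the abundance limit 1 junction gene, Cldn1, was called lower. Some alternatives leave fewer genes or samples, and the cause of these changes was not tested.

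Same-numbered samples had correlations of deviations of -0.0963, 0.105 and 0.167, so the numbers were not taken to pair the samples. With a replicate block 1277 genes were called higher and 1375 lower, and the adjusted p of Msln was 2.6e-04 (limma, BH), of Krt18 3.1e-04 and of Tbx18 0.086. Members with at most 16 reads in any library, Krt8, Upk3b, Krt19 and Bnc1, are limited by depth.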
